A study of Mus musculus with 7 samples.

Results

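The genes described here make, sense and break down prostaglandins, and 10 were listed: the cyclooxygenases Ptgs1 and Ptgs2, the terminal synthases Ptges, Ptges3, Ptgis, Ptgds and Tbxas1, the receptors Ptger4 and Ptgfr, and the catabolic enzyme Hpgd. The group was chosen by a measured value, the higher Ptgs2 signal of the IKKβ-deleted mdx hearts, in the contrast these hearts also serve here. The values of the listed genes are therefore a description, with no test. A probe set, the group of array probes that reports 1 transcript, was taken where the platform annotation named a listed gene and no other gene. By this rule 18 of 45037 probe sets and 8 of the 10 genes were measured, among 18193 genes in all. Ptgs1 had no such probe set, and Ptges3 was covered only by 2 probe sets that also name its pseudogene Ptges3-ps.

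RNA from 7 whole hearts, 1 heart per array, was hybridized to a GeneChip mouse array. One group of mice (mdx HRTΔIKKβ, n = 4) carried Myh6-cre and had deleted IKKβ, and their littermates (mdx IKKβf/f, n = 3) carried the floxed IKKβ alleles without Cre. Per the labels the mice were 7 months of age, and per the study's methods they were male. The methods give C57BL/10 ScSn as the background of the purchased mdx line and none for the crossed mice. All 7 mice were mdx, which lack dystrophin, so no heart with dystrophin is in the comparison. IKKβ is the kinase that releases NF-κB, a transcription factor of inflammation, from its inhibitor, and the study asked what NF-κB does in dystrophic heart muscle. Myh6-cre is driven by the alpha myosin heavy chain promoter and acts in cardiomyocytes, so endothelial cells, fibroblasts, smooth muscle and leukocytes of the same hearts kept IKKβ.

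Prostaglandins are local lipid signals. Phospholipases free arachidonic acid from membranes, the cyclooxygenases Ptgs1 (steadily made) and Ptgs2 (induced by cytokines, growth factors and NF-κB) turn it into prostaglandin H2, and each terminal synthase then makes 1 end product. These products act through G protein-coupled receptors on the same or neighbouring cells, and are cleared by uptake and by oxidation through Hpgd. In the heart and its vessels, prostacyclin relaxes vascular smooth muscle and restrains platelets, thromboxane A2 opposes it, prostaglandin E2 acts through 4 receptors (Ptger1 to Ptger4), and prostaglandin F2α acts through Ptgfr.

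The Ptgs2 promoter is shown because this gene was the reason the group was picked and because its regulatory elements are the textbook example of an induced prostaglandin gene. The sequences are from RefSeq (GRCm38.p6), which gives a promoter window from 250 bases before to 50 bases after the start for 9 of the 10 genes. The first run is the 250 bases before the start, chr1:150099781-150100030 on the plus strand, with the palindrome TTGCGCAA, a C/EBP site motif, in capitals at position -69. The second run is 30 bases just after this RefSeq start, chr1:150100033-150100062 on the plus strand, with 2 overlapping motifs in capitals. All positions count from that start, and other starts of the gene were not examined.
Ptgs2 before the start: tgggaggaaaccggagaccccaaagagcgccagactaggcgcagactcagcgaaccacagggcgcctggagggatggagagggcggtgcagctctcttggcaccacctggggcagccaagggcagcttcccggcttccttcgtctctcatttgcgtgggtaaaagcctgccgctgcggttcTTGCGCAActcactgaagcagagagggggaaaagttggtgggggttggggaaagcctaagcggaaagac
Ptgs2 after the start: agtcaccactaCGTCACGTGgagtccgctt
In the second run the capitals hold TGACG, the core of the cyclic AMP response element, read on the other strand from position 14, and the E-box CACGTG from position 17, which share 2 bases. Both strands of each window were searched. TTGCGCAA was in 0.183% of 32851 RefSeq mouse promoters (60 promoters) and CACGTG in 7.15%, and among the 9 listed genes with a promoter both were found in that of Ptgs2 only. TGACG was in 20.8% of all promoters and in those of Ptgs2 and Ptges3. A loose κB pattern, GGG and CC with any 5 bases between them, was in 50.8% of all promoters and in 6 of the 9, and a stricter κB consensus was in 8.46% of all and in those of Ptges3 and Ptgds. TATAAA was in 13.6% of all promoters and in those of Tbxas1 and Hpgd. A match of letters is a description of the window and not a site of binding. Sequence outside the window was not searched, so a motif absent from a window may lie elsewhere near the gene.

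The values are log2 RMA values, and a difference of 1 between the groups is a 2-fold difference in signal. The medians of the 7 arrays lay between 6.73 and 6.75, and the lowest correlation between any pair of arrays over all probe sets was 0.987. Over all probe sets 0% (0 of 45037) passed limma with Benjamini-Hochberg adjustment at 0.05, the smallest adjusted p was 0.336, and 2735 probe sets (6.07%) had an unadjusted limma p below 0.05. Ikbkb, the gene of IKKβ, read 8.44, 8.86, 8.75 and 8.82 on its brightest probe set in mdx HRTΔIKKβ hearts and 8.82, 9.03 and 8.86 in mdx IKKβf/f hearts, and the groups differed by -0.18 ± 0.11 (SE). The 5 probe sets of Ikbkb had differences from -0.18 to 0.02, and the first of these was -0.09 without mdx HRTΔIKKβ replicate 1 and -0.12 without replicate 2 of mdx IKKβf/f. Where the probe sets lie relative to the deleted exon was not examined, so they do not check the labels. The study itself reported reduced Ikbkb expression in mdx HRTΔIKKβ mice by qPCR on whole-heart RNA. The cardiomyocyte marker Myh6 read 14.82 to 14.86 in mdx HRTΔIKKβ hearts and 14.82 to 14.89 in mdx IKKβf/f hearts.

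Ptgs2, the inducible cyclooxygenase, was the only listed gene past 1.5-fold (0.585 on the log2 scale) on its brightest probe set. Its brighter probe set read 6.67, 6.84, 6.04 and 6.25 in mdx HRTΔIKKβ replicates 1 to 4 and 5.44, 5.28 and 6.29 in mdx IKKβf/f replicates 1 to 3. These are dim signals: only mdx HRTΔIKKβ replicate 2 lay above the array medians (6.73 to 6.75). Whether they exceed background was not tested. The groups overlapped, because mdx IKKβf/f replicate 3 lay above mdx HRTΔIKKβ replicates 3 and 4. The mean was 6.45 ± 0.37 in mdx HRTΔIKKβ hearts and 5.67 ± 0.54 in mdx IKKβf/f hearts (SD, n = 4 and 3), a difference of 0.78 ± 0.28 (SE), the 107th highest of 18193 genes. Of the 18 probe sets 2 were past 1.5-fold, this one and 1 of Ptgfr, both higher. Past 1.5-fold, 1.14% of all genes were higher and 0.313% lower, and 0.79% of all probe sets were higher, and nothing is read from this about the listed genes, since the contrast chose them. In whole-heart RNA more cells that express a gene and more of its RNA per cell cannot be told apart.

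The size of the Ptgs2 difference depended on the hearts and the probe set. It was 0.59 without replicate 2 of mdx IKKβf/f and 1.09 without its replicate 3, a heart without which the groups did not overlap. The second probe set of Ptgs2 read 6.14, 6.00, 5.70 and 5.83 in mdx HRTΔIKKβ hearts and 5.74, 5.56 and 5.98 in mdx IKKβf/f hearts, and the groups differed by 0.16 ± 0.13 (SE). All of these values lay below the array medians. With the mean of both probe sets the difference was 0.47, below 1.5-fold.

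**Figure D1:**
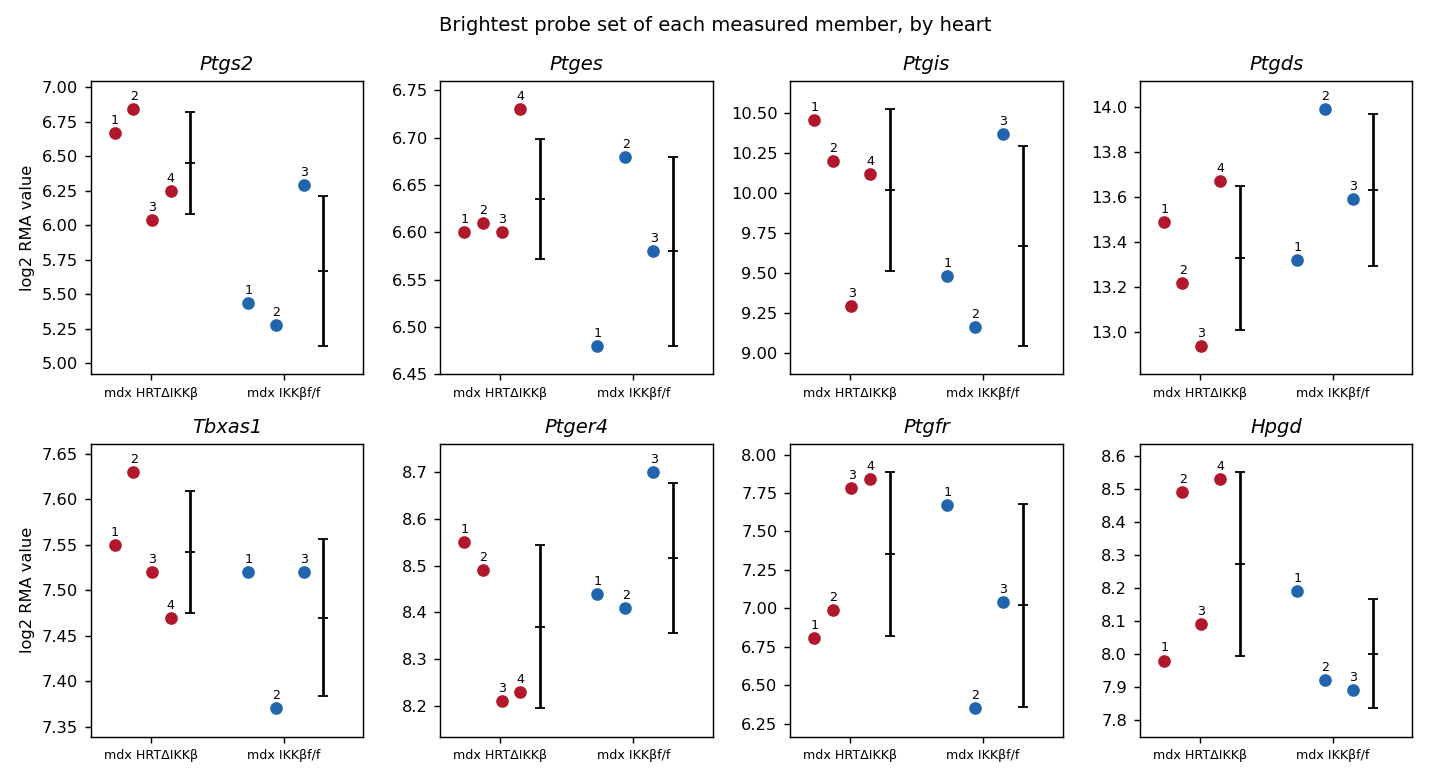
Log2 RMA value of the brightest probe set of each of the 8 measured genes, 1 panel per gene, in mdx HRTΔIKKβ hearts (red, left) and mdx IKKβf/f hearts (blue, right). Points are hearts numbered by replicate, bars are the mean ± SD, and the vertical axes differ between panels and do not start at 0. In the Ptgs2 panel all 4 mdx HRTΔIKKβ hearts lie above mdx IKKβf/f replicates 1 and 2, while mdx IKKβf/f replicate 3, at 6.29, lies among them.

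The synthases that act after the cyclooxygenases differed less. Ptgis, prostacyclin synthase, read 10.46, 10.20, 9.29 and 10.12 in mdx HRTΔIKKβ hearts and 9.48, 9.16 and 10.37 in mdx IKKβf/f hearts. The mean was 10.02 ± 0.51 in mdx HRTΔIKKβ hearts and 9.67 ± 0.63 in mdx IKKβf/f hearts (SD), a difference of 0.35 ± 0.35 (SE). Replicate 3 of mdx HRTΔIKKβ was the low heart of its group and replicate 3 of mdx IKKβf/f the high one of its group, so the groups overlapped. Leaving out replicate 3 of mdx IKKβf/f gave a difference of 0.70, leaving out replicate 3 of mdx HRTΔIKKβ gave 0.59, and leaving out replicate 2 of mdx IKKβf/f gave 0.10.

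Ptgds, the lipocalin-type prostaglandin D synthase, was lower in mdx HRTΔIKKβ hearts on both of its probe sets. The brighter read 13.49, 13.22, 12.94 and 13.67 in mdx HRTΔIKKβ hearts and 13.32, 13.99 and 13.59 in mdx IKKβf/f hearts, and the groups differed by -0.30 ± 0.21 (SE). The other read 12.88, 12.59, 12.17 and 13.10 in mdx HRTΔIKKβ hearts and 12.55, 13.56 and 13.00 in mdx IKKβf/f hearts, and the groups differed by -0.35 ± 0.28 (SE). The groups overlapped on both, and the first difference was -0.46 with replicate 1 of mdx IKKβf/f left out and -0.125 with its replicate 2 left out.

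Ptges, the inducible prostaglandin E synthase that is often coupled to Ptgs2, and Tbxas1, thromboxane A synthase, differed by 0.12 or less on every probe set. The brightest Ptges probe set read 6.60, 6.61, 6.60 and 6.73 in mdx HRTΔIKKβ hearts and 6.48, 6.68 and 6.58 in mdx IKKβf/f hearts, and the groups differed by 0.05 ± 0.07 (SE), or by -0.00087 without mdx IKKβf/f replicate 1 and 0.10 without its replicate 2. The groups overlapped. Another Ptges probe set read 6.61, 6.57, 6.51 and 6.51 in mdx HRTΔIKKβ hearts and 6.36, 6.48 and 6.45 in mdx IKKβf/f hearts, and the groups differed by 0.12 ± 0.05 (SE). This was the 1 probe set of the 18 whose groups did not overlap, against 3.01% of all probe sets that were higher without overlap and 5.44% in either direction, and the other Ptges probe set had a difference of 0.11 ± 0.10 (SE). Tbxas1 read 7.55, 7.63, 7.52 and 7.47 in mdx HRTΔIKKβ hearts and 7.52, 7.37 and 7.52 in mdx IKKβf/f hearts, and the groups differed by 0.07 ± 0.06 (SE), or by 0.02 without mdx IKKβf/f replicate 2.

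Ptges3 encodes p23, a co-chaperone of Hsp90 that also has prostaglandin E synthase activity. The 2 probe sets that name it together with its pseudogene cannot be assigned to either, and they had differences of 0.14 ± 0.06 (SE) and 0.11 ± 0.07 (SE). The first read 10.97, 11.09, 10.96 and 10.96 in mdx HRTΔIKKβ hearts and 10.75, 10.95 and 10.88 in mdx IKKβf/f hearts, so that the lowest mdx HRTΔIKKβ heart (10.96) lay just above the highest mdx IKKβf/f heart (10.95).

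**Figure D2:**
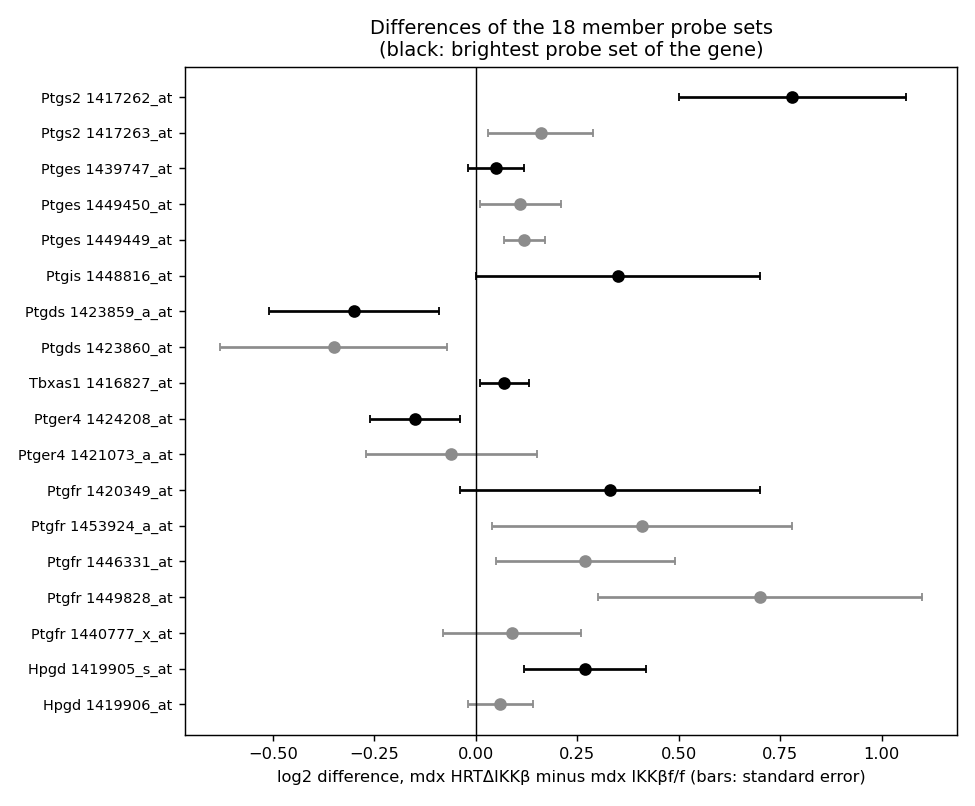
Difference in log2 RMA value, mdx HRTΔIKKβ minus mdx IKKβf/f, for each of the 18 probe sets of the 8 measured genes (points, with bars of 1 standard error of the limma fit). The largest is 0.78 for the brighter probe set of Ptgs2, the next 0.70 for 1 of the 5 of Ptgfr, and the lowest -0.35 for the second of Ptgds.

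Ptgfr, the receptor for prostaglandin F2α, had the largest SD of the 8 genes within each group, 0.53 in mdx HRTΔIKKβ hearts and 0.66 in mdx IKKβf/f hearts. Its brightest probe set read 6.81, 6.99, 7.78 and 7.84 in mdx HRTΔIKKβ hearts and 7.67, 6.35 and 7.04 in mdx IKKβf/f hearts, and the groups differed by 0.33 ± 0.37 (SE). The 5 probe sets of Ptgfr had differences from 0.09 to 0.70, and mdx IKKβf/f replicate 2 was the lowest heart on all 5. Without that heart the difference on the brightest probe set was -0.000731, and with replicate 1 of mdx IKKβf/f left out it was 0.66.

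The hearts that were high and low in Ptgfr were also high and low in atrial marker genes. The score of 8 atrial markers, their mean log2 value relative to the mean of all 7 hearts, was -0.23, 0.26, 0.51 and 0.89 in mdx HRTΔIKKβ hearts and 0.35, -1.47 and -0.31 in mdx IKKβf/f hearts. All 8 atrial markers averaged higher in the mdx HRTΔIKKβ group, and Sln, the atrial calcium pump inhibitor sarcolipin, read 11.51, 12.62, 13.10 and 13.38 in mdx HRTΔIKKβ hearts and 12.85, 8.90 and 11.41 in mdx IKKβf/f hearts. Both measures were highest in mdx HRTΔIKKβ replicates 4 and 3, next in mdx IKKβf/f replicate 1 and lowest in mdx IKKβf/f replicate 2, and the 3 hearts between them were in a different order. The part of the atrial share of the sample in the Ptgfr values was not tested.

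**Figure D3:**
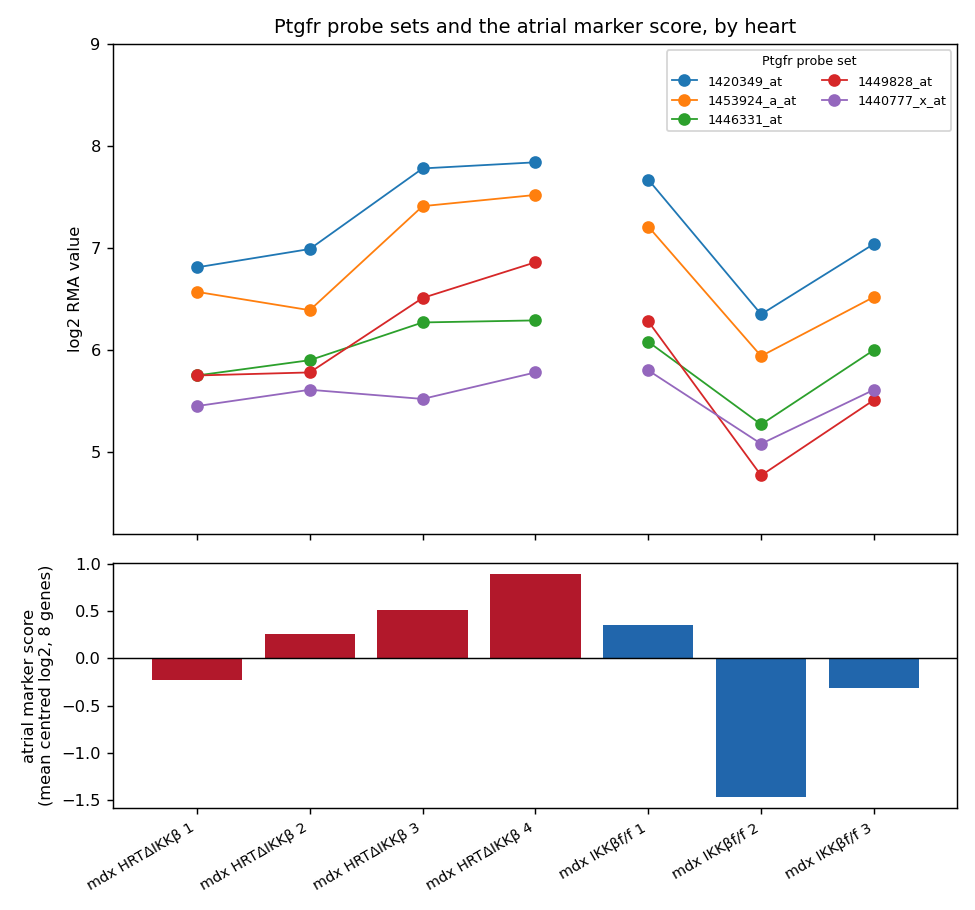
Top, log2 RMA values of the 5 Ptgfr probe sets in each of the 4 mdx HRTΔIKKβ and 3 mdx IKKβf/f hearts, on an axis that does not start at 0, with lines that join hearts of 1 group for reading and carry no order. Bottom, the atrial marker score of the same hearts (mdx HRTΔIKKβ red, mdx IKKβf/f blue), in which mdx IKKβf/f replicate 2, at -1.47, is the lowest, as it is on all 5 probe sets.

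Ptger4, the prostaglandin E receptor that raises cyclic AMP, had a slightly lower mean in mdx HRTΔIKKβ hearts, by less than the SD of either group. Its brighter probe set read 8.55, 8.49, 8.21 and 8.23 in mdx HRTΔIKKβ hearts and 8.44, 8.41 and 8.70 in mdx IKKβf/f hearts, and the groups differed by -0.15 ± 0.11 (SE), or by -0.05 without mdx IKKβf/f replicate 3. The groups overlapped. The other read 5.34, 5.72, 5.15 and 5.30 in mdx HRTΔIKKβ hearts and 5.34, 5.07 and 5.90 in mdx IKKβf/f hearts, and the groups differed by -0.06 ± 0.21 (SE).

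The 3 highest hearts were the same in Ptgs2, Ptgis and Ptger4, namely mdx HRTΔIKKβ replicates 1 and 2 and mdx IKKβf/f replicate 3. The last of these was also the heart with the highest score of 10 smooth muscle and pericyte markers, which was -0.06, -0.01, -0.14 and -0.04 in mdx HRTΔIKKβ hearts and -0.26, -0.21 and 0.71 in mdx IKKβf/f hearts. Of the 10 markers, 2 averaged higher and 8 lower in the mdx HRTΔIKKβ group. In mdx IKKβf/f replicate 3 smooth muscle myosin Myh11 read 10.27, against 8.33 and 8.54 in the other mdx IKKβf/f hearts and 8.66 to 8.74 in mdx HRTΔIKKβ hearts. The pericyte marker Rgs5 was little different, at 13.54 against 13.30 and 13.51 in the other mdx IKKβf/f hearts. Kcnj8 was also flat, at 10.06 against 10.06 and 10.04. Pdgfrb was higher in that heart, at 10.99 against 10.77 and 10.61, as was Notch3, at 9.83 against 9.51 and 9.26. The score of 10 endothelial markers had the same 3 highest hearts. It was 0.07, 0.20, -0.06 and -0.06 in mdx HRTΔIKKβ hearts and -0.06, -0.15 and 0.05 in mdx IKKβf/f hearts. Of these endothelial markers, 6 averaged higher and 4 lower in the mdx HRTΔIKKβ group. The part of smooth muscle cells, pericytes and endothelial cells in the values of Ptgs2, Ptgis and Ptger4 was not tested.

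Hpgd, the dehydrogenase that inactivates prostaglandins and is abundant in lung, read 7.98, 8.49, 8.09 and 8.53 on its brightest probe set in mdx HRTΔIKKβ hearts and 8.19, 7.92 and 7.89 in mdx IKKβf/f hearts. The mean was 8.27 ± 0.28 in mdx HRTΔIKKβ hearts and 8.0 ± 0.17 in mdx IKKβf/f hearts (SD), a difference of 0.27 ± 0.15 (SE), and the groups overlapped. The second probe set read 6.05, 6.25, 6.31 and 6.19 in mdx HRTΔIKKβ hearts and 6.26, 6.13 and 6.03 in mdx IKKβf/f hearts. Its groups differed by 0.06 ± 0.08 (SE), and its highest heart was mdx HRTΔIKKβ replicate 3. On the brightest probe set only, replicates 2 and 4 of mdx HRTΔIKKβ were the 2 highest hearts. They were also the only hearts with a lung and airway score above 0. That score, over 9 markers, was -0.19, 2.38, -0.87 and 0.94 in mdx HRTΔIKKβ hearts and -0.94, -0.47 and -0.84 in mdx IKKβf/f hearts, and all 9 markers averaged higher in the mdx HRTΔIKKβ group. The airway secretoglobin Scgb1a1 read 8.86, 13.27, 6.36 and 12.54 in mdx HRTΔIKKβ hearts and 5.59, 8.12 and 6.79 in mdx IKKβf/f hearts. The 2 hearts were not alike in the alveolar markers: the surfactant gene Sftpc read 6.66, 11.83, 6.25 and 6.25 in mdx HRTΔIKKβ hearts and 6.10, 6.14 and 5.82 in mdx IKKβf/f hearts. In replicate 4 the 3 secretoglobins were high, and of the alveolar markers Sftpa1 (6.26) was above every mdx IKKβf/f heart by the most, while Cldn18 (5.39) and Ager (6.81) were not above them. Without replicates 2 and 4 the Hpgd difference on its brightest probe set was 0.04, and that of Ptgs2 was 0.685. Leaving out the highest hearts of a gene lowers its difference whatever else those hearts hold. Whether lung tissue was in these samples was not tested further.

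**Figure D4:**
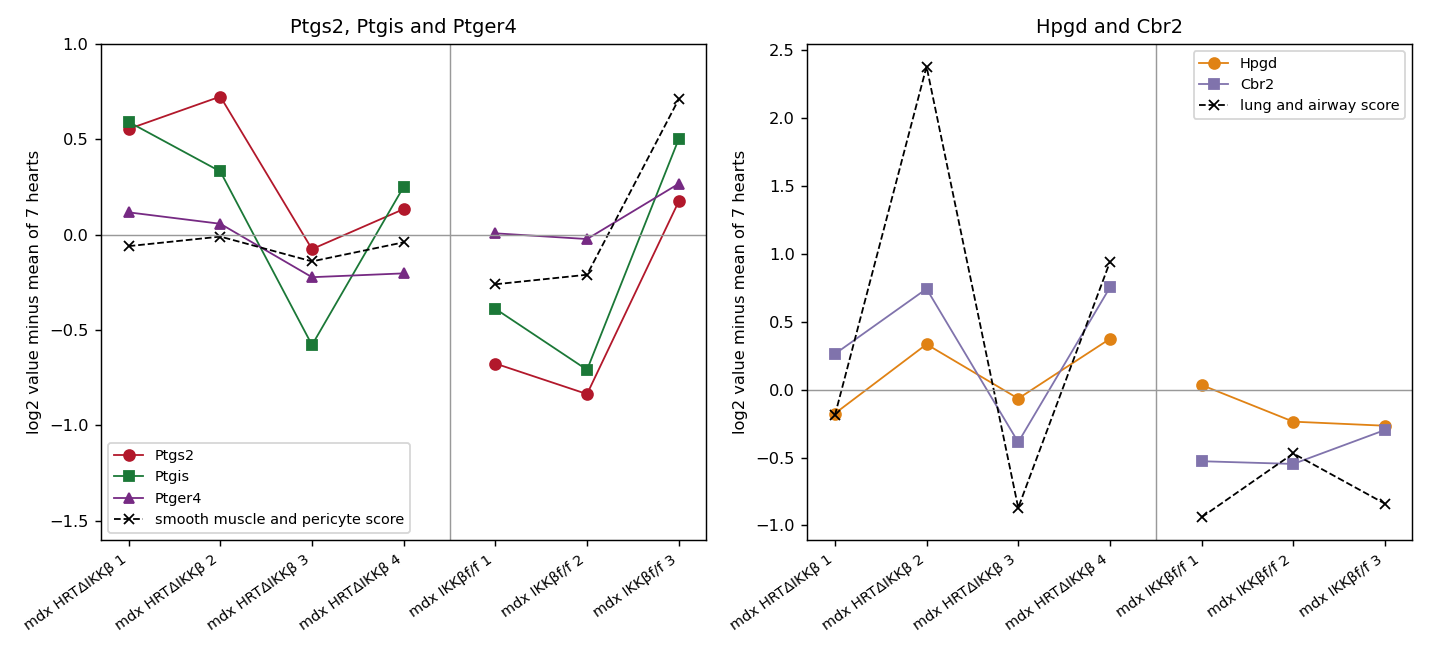
Log2 RMA values of each heart minus the mean of the 7 hearts, for mdx HRTΔIKKβ replicates 1 to 4 and mdx IKKβf/f replicates 1 to 3. Left, Ptgs2, Ptgis and Ptger4 with the smooth muscle and pericyte score (crosses); right, Hpgd and Cbr2 with the lung and airway score, which is above 0 in mdx HRTΔIKKβ replicates 2 and 4 only; lines join hearts of 1 group for reading and carry no order.

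Across the 8 measured genes, 6 were higher and 2 lower in mdx HRTΔIKKβ hearts by the group means, with a median difference of 0.17 and a range from -0.30 to 0.78, beside 47.7% of all genes higher and a median of -0.01 over all genes. None of the 8 brightest probe sets had groups that did not overlap (0 of 8), against 3.05% of all genes higher, 2.62% lower and 5.67% in either direction.

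Genes with the most similar pattern across hearts within the groups were found from the correlation over the 7 hearts after each group mean was taken off, among 2476 genes that were bright enough and varied, and are a description without a test. Such a gene need not differ between the groups in the same direction. For Ptgs2 these were the Wnt receptor Fzd1 (r = 0.979), the actin regulator Kank1 (r = 0.978), the lymphatic growth factor Vegfc (r = 0.97), the sterol carrier Stard4 (r = 0.964), Atp8b1 (r = 0.959) and 2700081O15Rik (r = 0.959). With the group means kept, r was 0.871 for Fzd1, 0.926 for Kank1 and 0.92 for Atp8b1. It was 0.609 for Stard4, 0.132 for Vegfc and 0.331 for 2700081O15Rik. Vegfc (-0.39 ± 0.20, SE) and 2700081O15Rik (-0.23 ± 0.20) were lower in mdx HRTΔIKKβ hearts, unlike Ptgs2. With 7 hearts high values of r are common: 49 genes exceeded r = 0.9 with Ptgs2 after the group means were taken off. Fzd1 read 9.24, 9.44, 8.80 and 8.94 in mdx HRTΔIKKβ hearts and 8.86, 8.56 and 9.34 in mdx IKKβf/f hearts, with the same high hearts as Ptgs2.

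For the synthases, the genes most like Ptgis were Igfbp7 (r = 0.993), Scara3 (r = 0.987) and Lrp1 (r = 0.979), those most like Ptgds were C1ql3 (r = 0.954), Efnb3 (r = 0.864) and Prune2 (r = 0.863), those most like Ptges were Lyve1 (r = 0.958), C1ql3 (r = 0.923) and Cped1 (r = 0.922), and those most like Tbxas1 were Macir (r = 0.984), Cpox (r = 0.979) and Foxn2 (r = 0.976). For the receptors, Ptgfr was most like Sort1 (r = 0.993), Stard10 (r = 0.979) and Fgf12 (r = 0.977), of which Fgf12 is in the atrial list, and Ptger4 was most like Ppargc1b (r = 0.98), Emilin1 (r = 0.976) and Chd6 (r = 0.975). With the group means kept, r with Ptger4 was 0.981 for Ppargc1b, 0.5 for Emilin1 and 0.311 for Chd6. Hpgd was most like Slc39a8 (r = 0.978), Pfkfb3 (r = 0.977) and Prkag2 (r = 0.963).

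Other genes of the pathway were taken from 6 lists with 65 genes, 61 of them on the array. None passed limma with Benjamini-Hochberg adjustment (0% of all genes did), 5 had an unadjusted limma p below 0.05 (3 higher and 2 lower), and over all genes 3.25% were higher and 2.95% lower at that level. The median difference of the 61 was 0.03, against -0.01 over all genes, with 41 higher and 20 lower. Of the 61, 2 were higher and 2 lower without overlap of the groups, beside 3.05% and 2.62% of all genes. Nothing is read from this count about the genes named below. Among the enzymes that free arachidonic acid, 13 of 16 measured genes averaged higher in the mdx HRTΔIKKβ group but none had an unadjusted p below 0.05, and the median was 0.04. Cytosolic phospholipase A2, Pla2g4a, read 7.67, 7.84, 7.09 and 7.74 in mdx HRTΔIKKβ hearts and 7.27, 6.95 and 7.49 in mdx IKKβf/f hearts, and the groups differed by 0.35 ± 0.20 (SE, limma, adjusted p = 0.796).

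Of the remaining prostanoid synthases, Prxl2b, a prostaglandin F synthase, was lower in mdx HRTΔIKKβ hearts and its groups did not overlap. It read 11.95, 12.05, 12.01 and 12.21 in mdx HRTΔIKKβ hearts and 12.23, 12.48 and 12.37 in mdx IKKβf/f hearts, and the groups differed by -0.30 ± 0.08 (SE, limma, adjusted p = 0.796). Ptges2 (0.02 ± 0.07), Hpgds (-0.06 ± 0.07), Akr1b8 (0.21 ± 0.12), Akr1c18 (0.03 ± 0.08), Gpx1 (0.07 ± 0.20) and Gpx4 (-0.06 ± 0.05) had the differences given in parentheses with their SE.

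Among the other prostanoid receptors and the receptor partner Ptgfrn, the gene with the largest difference was Ptger3, a prostaglandin E receptor that lowers cyclic AMP. Ptger3 read 5.61, 7.76, 4.64 and 4.67 in mdx HRTΔIKKβ hearts and 4.78, 4.14 and 4.38 in mdx IKKβf/f hearts, and the groups differed by 1.24 ± 0.72 (SE, limma, adjusted p = 0.796). Outside mdx HRTΔIKKβ replicate 2 it read 5.61 or less, below the array medians of 6.73 to 6.75. It was high in that heart, and without that heart the difference was 0.54. Of the 7 hearts, this one also scored highest for neutrophils (2.68), lung and airway (2.38), B and plasma cells (1.86) and adipocytes (1.56). The same held for mesothelium (0.95), platelets (0.50), endothelium (0.20) and mast cells (0.16). In mdx IKKβf/f replicate 1 the neutrophil score was 2.42 and Ptger3 read 4.78. The part of these cells in the Ptger3 difference was not tested. Ptgfrn, a membrane protein that binds Ptgfr and lowers its ligand binding, read 9.53, 9.67, 9.52 and 9.74 in mdx HRTΔIKKβ hearts and 9.31, 9.16 and 9.51 in mdx IKKβf/f hearts, without overlap, a difference of 0.29 ± 0.10 (SE, limma, adjusted p = 0.796). The prostacyclin receptor Ptgir (-0.10 ± 0.23 SE), Ptger1 (0.03 ± 0.06), Ptger2 (-0.01 ± 0.08), Ptgdr (0.02 ± 0.05), Ptgdr2 (0.03 ± 0.08) and the thromboxane receptor Tbxa2r (-0.16 ± 0.08) differed by less, and the Ptgir difference changed sign to 0.10 without mdx HRTΔIKKβ replicate 3.

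Cbr2, a carbonyl reductase that is high in lung and can reduce prostaglandins, read 10.48, 10.96, 9.83 and 10.97 in mdx HRTΔIKKβ hearts and 9.69, 9.67 and 9.92 in mdx IKKβf/f hearts, and the groups differed by 0.80 ± 0.27 (SE, limma, adjusted p = 0.796). Its 2 highest hearts were mdx HRTΔIKKβ replicates 2 and 4, those with a lung and airway score above 0, and without them the difference was 0.40. The prostaglandin transporter Slco2a1, which takes prostaglandins up for clearance, read 8.47, 8.51, 7.69 and 8.04 in mdx HRTΔIKKβ hearts and 7.84, 7.66 and 7.99 in mdx IKKβf/f hearts, and the groups differed by 0.34 ± 0.20 (SE, limma, adjusted p = 0.796).

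In the list of glucocorticoid and annexin genes, named for glucocorticoid signalling and annexin A1 as brakes on phospholipase A2 and Ptgs2, 1 gene was higher and 1 lower at an unadjusted p below 0.05. Anxa2, annexin A2, read 12.11, 11.98, 11.26 and 11.50 in mdx HRTΔIKKβ hearts and 11.29, 11 and 11.32 in mdx IKKβf/f hearts, and the groups differed by 0.51 ± 0.21 (SE, limma, adjusted p = 0.796). Nr3c1, the glucocorticoid receptor, read 10.60, 10.67, 10.58 and 10.74 in mdx HRTΔIKKβ hearts and 10.83, 10.82 and 10.99 in mdx IKKβf/f hearts, without overlap, a difference of -0.23 ± 0.07 (SE, limma, adjusted p = 0.796). The lipoxygenase and leukotriene arm, another fate of arachidonic acid, had differences from -0.31 to 0.31 over 16 genes, with 9 higher and 7 lower and none at an unadjusted p below 0.05.

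**Figure D5:**
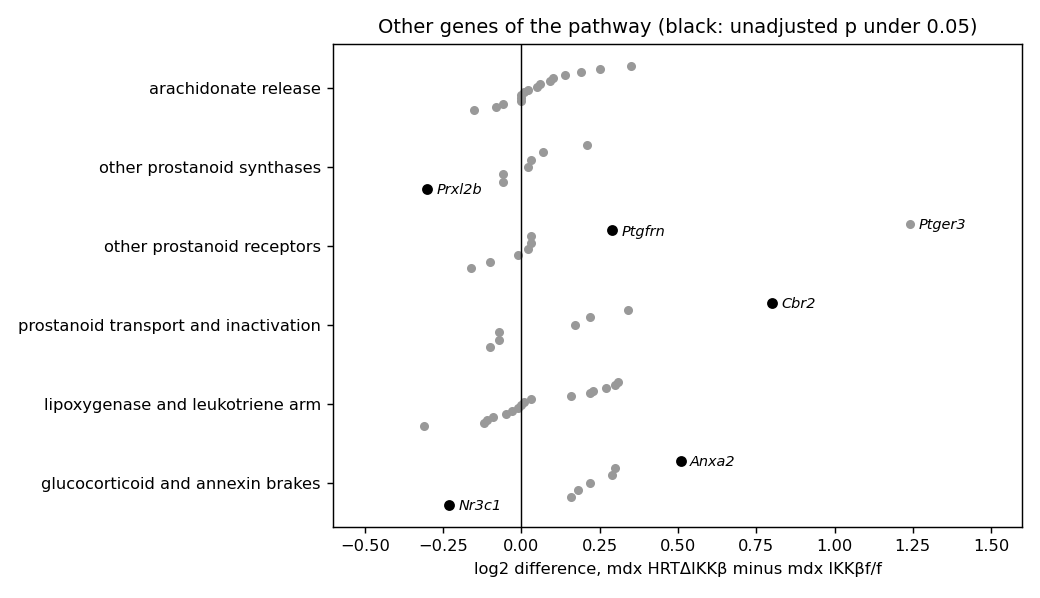
Difference in log2 RMA value, mdx HRTΔIKKβ minus mdx IKKβf/f, for the 61 measured genes of the 6 pathway lists, 1 row of points per list (black, unadjusted limma p below 0.05). The labelled genes are Ptger3 (1.24), Cbr2 (0.80), Anxa2 (0.51), Ptgfrn (0.29), Nr3c1 (-0.23) and Prxl2b (-0.30), and points within a row are spread vertically only to keep them apart.

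Genes that NF-κB is known to induce were counted alongside, because Ptgs2 is one of them. Of the 22, 16 were higher and 6 lower in mdx HRTΔIKKβ hearts by the group means, with a median of 0.12, and 4 were higher and 0 lower at an unadjusted p below 0.05, beside 3.25% and 2.95% of all genes. These were Myc (0.46 ± 0.07, SE), Bcl3 (0.37 ± 0.12), Ccl5 (0.29 ± 0.11) and Bcl2l1 (0.48 ± 0.19), and the lowest adjusted limma p among them was 0.56. Ccl2, a chemokine of monocytes, read 10.53, 9.37, 7.36 and 7.44 in mdx HRTΔIKKβ hearts and 7.31, 7.32 and 7.55 in mdx IKKβf/f hearts, and was high in mdx HRTΔIKKβ replicates 1 and 2, the hearts in which Ptgs2 was also highest. Cells other than cardiomyocytes kept IKKβ, so these values are for the whole heart and not for the deleted cells.

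Macrophage markers, like Ptgs2, averaged higher in mdx HRTΔIKKβ hearts. The score of 15 macrophage and monocyte markers was 0.23, 0.15, -0.10 and 0.19 in mdx HRTΔIKKβ hearts and -0.10, -0.27 and -0.10 in mdx IKKβf/f hearts, with 13 markers higher and 2 lower. The fibroblast score was 0.26, 0.17, -0.28 and 0.05 in mdx HRTΔIKKβ hearts and 0.08, -0.34 and 0.07 in mdx IKKβf/f hearts, and the cardiomyocyte score lay between -0.01 and 0 in mdx HRTΔIKKβ hearts and between -0.02 and 0.04 in mdx IKKβf/f hearts. The mesothelial and epicardial score of 8 markers was 0.35, 0.95, -0.15 and 0.26 in mdx HRTΔIKKβ hearts and -0.48, -0.49 and -0.43 in mdx IKKβf/f hearts, with 7 markers higher and 1 lower. The part of these cells in the Ptgs2 difference was not tested.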

How the data were processed

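Total RNA of 7 whole hearts was labelled and measured on Affymetrix GeneChip mouse arrays, 1 heart per array. The authors made the deposited log2 values by RMA, which corrects background, quantile-normalizes the arrays and summarises probes into probe sets. Partek was used, with Expression Console run independently, and versions and which program made the table are not given in the sources used here. RMA narrows the folds of dim probe sets, and any shift common to all genes is lost in quantile normalization.

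Groups were compared over all 45037 probe sets with limma 3.58.1 in R 4.3.3 (two-sided, Benjamini-Hochberg, no filter), which was tested on simulated data. Each of 18193 genes was represented by its brightest probe set, the one with the highest mean over all 7 arrays, and probe sets with several genes (932) or none (9160) named no gene. Symbols were compared with RefSeq (GRCm38.p6), in which 161 genes had no entry. Of 229 genes in 22 lists (pathway, NF-κB and cell type markers), 215 were on the array. The genes and lists were chosen with earlier results of these data known. Named are all members, every other synthase and receptor, the remaining pathway and NF-κB genes at an unadjusted p of 0.05, the genes most like each member, and Pla2g4a, Slco2a1, Ccl2 and the markers singled out after their values were seen. A cell type score is the mean over its markers of each heart's log2 value minus the mean of all 7 hearts. Likeness was sought among genes with a mean of at least 6 and an SD of at least 0.2. The hearts are biological replicates per the study's methods, and the number of arrays limits the precision.

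The alternatives were other scalings, probe set rules, a filter on probe sets with a mean under 5, other variance models, the methods' unpaired Student test, a replicate block and leaving out each heart.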

Additional observations from a re-analysis of the deposited data

Results flagged for a closer look

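In groups of 4 to 10 samples, a heart was marked where its gap to the nearest other, divided by the range of the group, exceeded Dixon's 95% critical value, which for the 4 mdx HRTΔIKKβ hearts is 0.829. The 3 mdx IKKβf/f hearts were too few for it. Of 56 values checked, 5 were marked, and chance alone marks about 1 in 20. Ptges on its brightest probe set was high in replicate 4, at 6.73 (gap over range 0.926). Tbxa2r, the thromboxane receptor, was high in replicate 1, at 8.07 (0.848). The neutrophil score was high in replicate 2, at 2.68 (0.902), and mdx IKKβf/f replicate 1 was nearly as high, at 2.42. Also marked were the T and NK cell score in replicate 1, at 0.722 (0.841), and the skeletal muscle score in replicate 2, at 0.24 (0.893).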

How the results depend on the processing

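The differences of the 8 genes moved by less than the gene's pooled within-group SD in all 128 comparisons with an alternative. This limit is wide: that SD exceeded the difference itself in Ptgis (0.56 against 0.35) and Ptgfr (0.59 against 0.33), for example. Some alternatives, such as trend and robust variance, cannot change a difference of means, so the count is no measure of stability. The count of listed genes past 1.5-fold was 1 in the values reported and 0 with the mean of all probe sets of a gene. Of the 61 pathway genes, 5 had an unadjusted p below 0.05, against 3 with the methods' Student test, 7 with trend and robust variance, and 6 with median-centred arrays, with a second quantile normalization and with array weights. The replicate numbers only name the hearts: hearts of the same number in both groups had deviations that correlated at -0.075, -0.377 and -0.036, and 0 of 3 correlated best with their own number. With the replicate block, 0 probe sets passed adjustment, 2192 had an unadjusted p below 0.05, 4 pathway genes did so, and the Ptgs2 difference was 0.846. That is also the difference without mdx HRTΔIKKβ replicate 4, which has no partner of its number. Leaving out mdx HRTΔIKKβ replicates 2 and 4, an alternative chosen after seeing the lung and airway scores, left 1579 probe sets and 3 pathway genes at an unadjusted p below 0.05, against 2735 and 5.

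Leaving out each heart in turn gave 0 to 1 probe sets that passed adjustment over the whole array, the 1 being a probe set of the immunoglobulin light chain gene Igk without mdx HRTΔIKKβ replicate 1. It gave 2019 to 3362 probe sets and 3 to 15 pathway genes at an unadjusted p below 0.05, the 3 without mdx IKKβf/f replicate 1 or 2 and the 15 without mdx HRTΔIKKβ replicate 3. Listed genes whose groups did not overlap numbered 0 to 1 (Hpgd without mdx IKKβf/f replicate 1, Ptges without replicate 2 and Ptgs2 without replicate 3), and those past 1.5-fold 1 to 2 (Ptgis joined Ptgs2 when replicate 3 of either group was left out, and Ptgfr did without mdx IKKβf/f replicate 1). The cause of these shifts was not tested. The shares over all genes were not computed without each heart, so nothing is read from these counts about the listed genes. Array signals carry no read depth, so 4 and 3 hearts set the precision.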

Other observations

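The skeletal muscle score of 10 markers was -1.28, 0.24, -1.32 and -1.46 in mdx HRTΔIKKβ hearts and 4.19, -1.18 and 0.80 in mdx IKKβf/f hearts, so that mdx IKKβf/f replicate 1 stood apart. The B and plasma cell score of 7 markers was -0.21, 1.86, 0.63 and 0.20 in mdx HRTΔIKKβ hearts and -0.22, -1.02 and -1.24 in mdx IKKβf/f hearts, and all 7 markers averaged higher in the mdx HRTΔIKKβ group. Tsc22d3, a glucocorticoid-induced gene, read 10.54, 10.16, 11.46 and 11.96 in mdx HRTΔIKKβ hearts and 10.43, 11.06 and 10.70 in mdx IKKβf/f hearts, with its highest values in mdx HRTΔIKKβ replicates 3 and 4. The NF-κB inhibitor gene Nfkbia, itself induced by NF-κB, read 12.40, 12.44, 13.33 and 13.26 in mdx HRTΔIKKβ hearts and 12.56, 13.05 and 12.60 in mdx IKKβf/f hearts, and was likewise highest in mdx HRTΔIKKβ replicates 3 and 4, the hearts in which Ptgs2 was lowest within its group.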
